A study of Mus musculus with 12 samples.

Results

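The 6 actin genes of the mouse, Acta1, Actc1, Acta2, Actg2, Actb and Actg1, were followed across 12 whole hearts on Agilent arrays. They were found as the non-control probes whose name, accession or description in the scanner files gives 1 of these genes: 12 of the 41174 non-control probes. Of these, 11 passed the filter on dim probes, being well above background in every heart of 1 group or more, and all 6 genes had such a probe, out of 18241 genes tested. Where a gene had several probes, the brightest represented it and the others are given beside it.

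The hearts came from male C57BL/6 mice, 1 array per mouse. In cardioGRMRdKO mice, called knockout here, Cre recombinase, driven in cardiomyocytes by the αMHC promoter, acts on floxed alleles of the glucocorticoid receptor (GR) and the mineralocorticoid receptor (MR). The dflox hearts came from littermates with the same floxed alleles and no Cre. There were 3 hearts in each of 4 groups: knockout and dflox at 1 month of age, and knockout and dflox at 2 months. No heart carried Cre with unfloxed receptors, so the effects of Cre and of receptor loss cannot be told apart.

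Actin is the monomer of the thin filament of muscle and of the cytoskeletal microfilament, and its isoforms differ in few residues, mostly near the N-terminus. Cardiac α-actin (Actc1) and skeletal α-actin (Acta1) build the thin filaments of cardiomyocytes. Acta1 is abundant in the late fetal and newborn mouse heart and is widely used as a marker of the return of fetal genes in a stressed heart. Smooth muscle α-actin (Acta2) and enteric γ-actin (Actg2) belong to smooth muscle, and Acta2 also to myofibroblasts and to the embryonic myocardium. β-actin (Actb) and cytoplasmic γ-actin (Actg1) are made in nearly every cell. Muscle actin genes are known targets of serum response factor (SRF), which binds the CArG box.

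The promoters of the actin genes are shown because the isoforms are known to share this control element. Of the 6 genes, 4 had an entry among RefSeq promoters on build GRCm38.p6 (250 bases before to 50 after the annotated start): Acta1 at chr8:123894726-123895025, Actc1 at chr2:114052826-114053125, Acta2 at chr19:34255324-34255623 and Actg1 at chr11:120348446-120348745, all on the minus strand. Actg2 and Actb had none. Capitals mark the CArG box and its variants with 1 G or C in the core of A and T.
Acta1 promoter: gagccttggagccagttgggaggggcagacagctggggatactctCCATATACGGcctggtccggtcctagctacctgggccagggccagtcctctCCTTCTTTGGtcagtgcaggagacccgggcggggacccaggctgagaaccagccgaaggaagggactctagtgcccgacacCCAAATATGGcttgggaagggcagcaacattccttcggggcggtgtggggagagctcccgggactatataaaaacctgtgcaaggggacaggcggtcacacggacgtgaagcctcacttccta
Acta2 promoter: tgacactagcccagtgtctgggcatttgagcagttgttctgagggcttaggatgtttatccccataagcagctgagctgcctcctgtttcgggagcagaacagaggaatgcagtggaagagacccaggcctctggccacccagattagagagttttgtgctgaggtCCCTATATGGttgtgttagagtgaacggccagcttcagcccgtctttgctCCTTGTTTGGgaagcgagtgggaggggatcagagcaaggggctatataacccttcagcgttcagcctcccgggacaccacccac
Actc1 promoter: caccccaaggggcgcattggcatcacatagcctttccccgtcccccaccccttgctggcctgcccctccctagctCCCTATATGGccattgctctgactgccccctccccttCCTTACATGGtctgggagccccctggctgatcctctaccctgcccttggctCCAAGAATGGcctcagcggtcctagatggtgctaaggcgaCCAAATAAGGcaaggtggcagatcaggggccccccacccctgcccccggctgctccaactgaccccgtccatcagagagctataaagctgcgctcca
Actg1 promoter: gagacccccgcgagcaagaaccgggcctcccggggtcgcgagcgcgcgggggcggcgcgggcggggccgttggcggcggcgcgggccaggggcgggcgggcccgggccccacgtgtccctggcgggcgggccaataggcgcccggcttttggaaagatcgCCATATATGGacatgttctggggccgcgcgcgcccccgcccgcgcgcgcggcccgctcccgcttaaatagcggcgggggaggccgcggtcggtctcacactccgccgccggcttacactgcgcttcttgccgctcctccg

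A CArG box, which reads the same in form on both strands, lay in the Acta1 window 73 bases before the start, in the Actc1 window 47 bases before it and in the Actg1 window 90 bases before it. Of all 32841 promoter windows of the same length, 1.63% held one. The Acta2 window held 2 variants with 1 G or C in the core, 84 and 34 bases before the start, Acta1 held 2 and Actc1 held 3. Such a variant was in 8.49% of all windows. The letters CATTCC, searched on both strands like those that follow, were in the Acta1 and Acta2 windows and in 14.7% of all windows. The letters TATAAA were in the Acta1 and Actc1 windows and in 13.6% of all. The letters AGAACA, a half-site that glucocorticoid and mineralocorticoid receptors can bind, occurred 2 times in the Acta2 window and 1 time in that of Actg1, and in 19.0% of all windows. These matches describe the letters of the windows only.

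The probes shown here are those behind the Acta1 and Actc1 results and, for Acta2, the second probe that passed the test, A_51_P450957, given beside the brightest one. They are 60 bases long and were designed on mouse build mm7. The build's exon annotation was not used here, but 2 of the 3 probes shown cover far more genome than their own length and so lie across a gap in the genome. The Acta1 probe lies at chr8:122479438-122479497, the Actc1 probe at chr2:113789115-113790038 (924 bases) and the Acta2 probe shown at chr19:33949738-33952992 (3255 bases), all on the minus strand.
Acta1 probe: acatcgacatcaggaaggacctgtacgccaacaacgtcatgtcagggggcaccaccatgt
Actc1 probe: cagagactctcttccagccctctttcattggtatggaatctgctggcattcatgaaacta
Acta2 probe: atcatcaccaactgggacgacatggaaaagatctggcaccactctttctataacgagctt

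Levels are given on a log2 scale relative to the array's own 75th percentile, so that 0 is that percentile and a step of 1 is a fold of 2. Levels of different probes have no common scale, and only differences between hearts are compared. Whether a probe named for 1 actin gene also reads transcripts of the others was not tested. On the 12 arrays the share of transcript spots well above background ran from 63.7% to 71.9%, and no spot was saturated. The 75th percentile ran from 479 to 1079. Knockout replicate 3 at 2 months had the highest, and its mean level of cardiomyocyte markers, 6.40, was the lowest. The number of hearts limits the precision. The floxed receptor genes served to check the labels. Nr3c1, the GR gene, differed by −0.73 between knockout and dflox hearts at 1 month (adjusted p = 0.138) and fell by 1.09 at 2 months (adjusted p = 0.00745). Nr3c2, the MR gene, differed by 0.07 and −0.44 (adjusted p = 1.00 and 0.668), and which part of the transcript was deleted is not given in the labels. The 11 cardiomyocyte markers were well above background, with mean levels between 6.40 and 6.90 in every heart. Of these 11, 3 were higher in knockout hearts at each age, against 50.1% of all genes at 1 month and 39.5% at 2 months. Their median differences were −0.05 and −0.16, against 0.00 and −0.08 over all genes, and none passed at either age. In the average over both ages 1 passed, lower in knockout hearts, where 4.39% of all genes passed. Markers of airway lining, which are not heart genes, varied widely between hearts and are given beside the results they touch.

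Skeletal α-actin, Acta1, rose in the knockout hearts at 2 months. It measured 6.64, 6.65 and 7.00 in knockout hearts, against 5.01, 4.92 and 4.83 in dflox hearts. Every knockout heart lay above every dflox heart, and each group was tight. The difference was 1.84 (SE 0.331, 95% interval 1.11 to 2.58, adjusted p = 0.0173), a fold of 3.59. In that comparison 2.23% of all genes passed the test and 1.12% rose, and 17.2% had groups that did not overlap. The call held in 8 of 12 fits that left out 1 heart. Without dflox replicate 2 or 3 or knockout replicate 1 or 3 of that age, the difference was 1.72 to 1.91 and the adjusted p 0.0511 to 0.0696. Fits without a heart of 1 month leave this difference as it is and change only the shared spread, so they test the call less. The fit compares RNA per array in whole hearts, in which a change in the number of cells of a type and a change in RNA per cell cannot be told apart.

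At 1 month the Acta1 groups overlapped. The level was 5.15, 5.86 and 5.13 in knockout hearts and 4.11, 5.43 and 4.12 in dflox hearts. The dflox replicate 2 heart stood above 2 of the 3 knockout hearts, and the other two dflox hearts stood below all of them. The difference of 0.83 (SE 0.331, 95% interval 0.10 to 1.56) did not pass the test (adjusted p = 0.439), where 0.948% of all genes did. Without that dflox heart the difference was 1.27 and just passed (adjusted p = 0.0495). Averaged over both ages the genotype difference was 1.34 (SE 0.234, adjusted p = 0.00901), in a comparison where 4.39% of all genes passed and 2.31% rose, and it passed in each of 12 fits that left out 1 heart.

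With age, Acta1 was higher at 2 months than at 1 month in knockout hearts by 1.38 (SE 0.331), with no overlap, as had 17.8% of all genes, but this did not pass the test (adjusted p = 0.117). It passed without dflox replicate 2 at 1 month (adjusted p = 0.0365), a heart outside the pair of groups that enters only through the shared spread. In dflox hearts the difference with age was 0.37 (adjusted p = 0.630), and the groups overlapped. Of all genes 0.351% passed in knockout and 0.636% in dflox hearts. The genotype difference was 1.01 larger at 2 months than at 1 month (SE 0.468, 95% interval −0.02 to 2.05), and this change between the ages did not pass either (adjusted p = 0.951). By limma, 0% of all genes passed there, and 646 had an unadjusted p under 0.05, none of them an actin gene. From high to low, the groups ran from knockout at 2 months (6.76 ± 0.21) over knockout at 1 month (5.38 ± 0.41) and dflox at 2 months (4.92 ± 0.09) to dflox at 1 month (4.55 ± 0.76, SD, n = 3 each), and the last of these overlapped both groups above it.

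**Figure D1:**
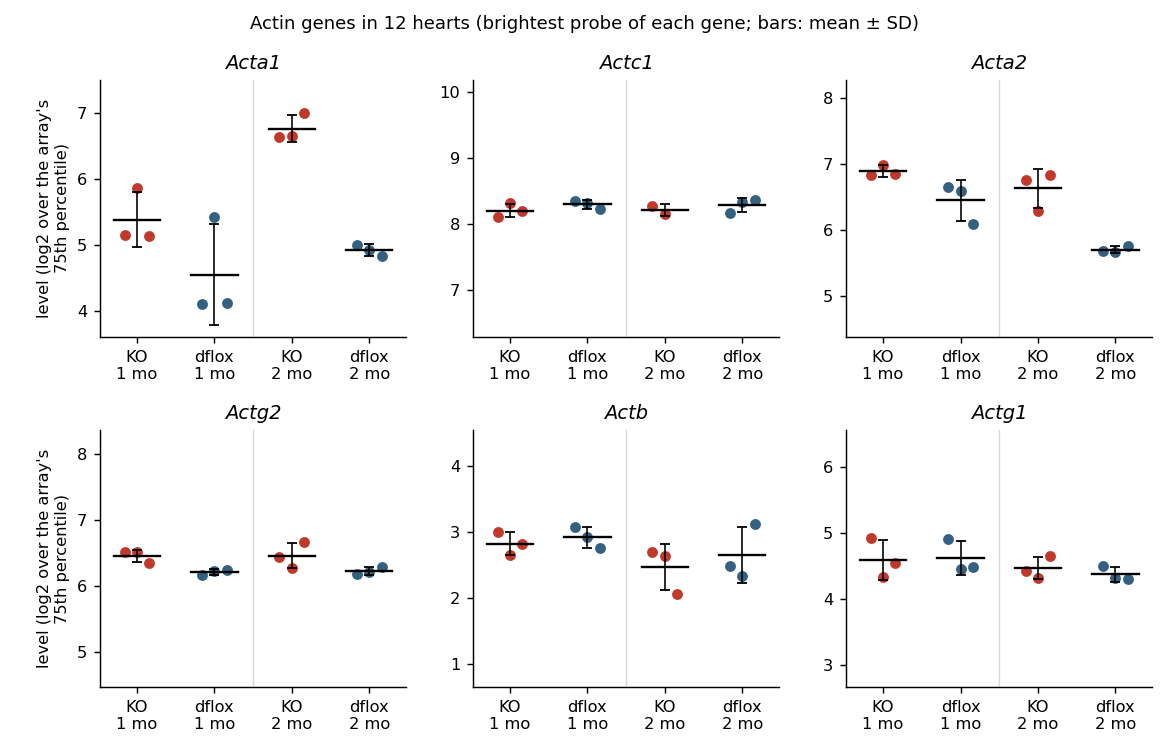
Level of the brightest probe of each actin gene (log2 over the array's 75th percentile, vertical axis, the same span in each panel) in the 3 hearts of each group (points), with the mean (line) and SD (error bar). KO is cardioGRMRdKO. Acta1 at 2 months lies between 6.64 and 7.00 in KO hearts and between 4.83 and 5.01 in dflox hearts, Acta2 lies higher in KO hearts at both ages, and Actc1 stays between 8.11 and 8.36 in every heart with a value.

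Cardiac α-actin, Actc1, the main sarcomeric actin of the adult heart, did not differ beyond the spread. Its level was 8.11, 8.31 and 8.19 in knockout hearts at 1 month, against 8.35, 8.32 and 8.22 in dflox hearts. At 2 months it was 8.27 and 8.14 in 2 knockout hearts, against 8.17, 8.32 and 8.36 in dflox hearts. The spot of the third knockout heart had been marked by the scanner software as not uniform and is missing from the fit, and its level would have been 7.65. The differences were −0.09 at 1 month (95% interval −0.33 to 0.14) and −0.07 at 2 months (95% interval −0.34 to 0.19), with adjusted p = 0.984 and 0.760. With the marked spot kept, the difference at 2 months was −0.26 (SE 0.152, adjusted p = 0.436). The intervals of the fit without it leave out a rise or fall of the size measured for Acta1 at 2 months.

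The sarcomeric pair was also compared within each array, where scaling between arrays has no part. The Acta1 probe minus the Actc1 probe gave −2.95, −2.45 and −3.05 in knockout hearts at 1 month, against −4.24, −2.89 and −4.10 in dflox hearts. In hearts of 2 months it gave −1.64 and −1.49 in knockout hearts, against −3.16, −3.40 and −3.53 in dflox hearts. Since the probes have no common scale, the values are no ratio of transcripts, but their difference between hearts shows unequal change. Averaged over the ages, the knockout minus dflox difference was 1.36 (exact permutation test within age, two-sided, p = 0.015 over 200 regroupings, where 0.005 is the smallest possible). It was 0.92 at 1 month (exact permutation p = 0.3) and 1.80 at 2 months (exact permutation p = 0.1, the smallest that 2 against 3 hearts allow). Without the 3 hearts at 2 months with high airway markers (knockout replicates 1 and 3 and dflox replicate 3) it was 1.35, with 1 knockout heart against 2 dflox hearts left at that age.

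**Figure D2:**
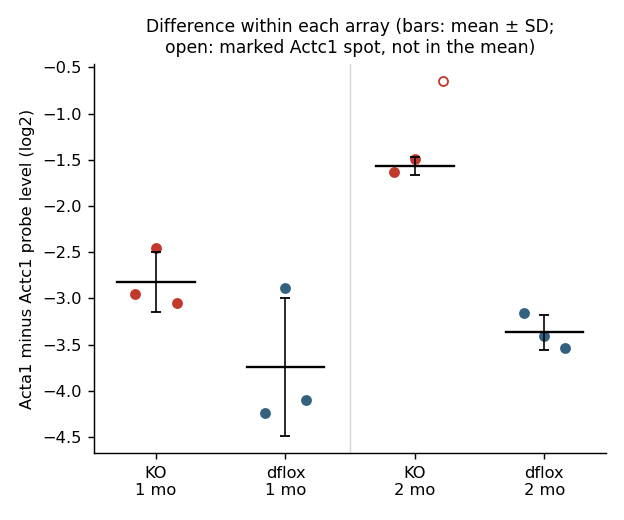
Acta1 probe level minus Actc1 probe level within each array (log2, vertical axis) for the hearts of each group (points), with mean (line) and SD (error bar). KO hearts at 2 months lie at −1.64 and −1.49 and dflox hearts between −3.53 and −3.16. The open point is the KO heart whose Actc1 spot was marked, −0.65 if that spot is kept.

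Smooth muscle α-actin, Acta2, rose in the knockout hearts at 2 months. Its level was 6.76, 6.29 and 6.84 in knockout hearts and 5.68, 5.66 and 5.76 in dflox hearts. The dflox hearts lay within a narrow band and all 3 knockout hearts above it. The difference was 0.93 (SE 0.175, 95% interval 0.54 to 1.32, adjusted p = 0.0225), a fold of 1.90. The call held in 7 of 12 fits that left out 1 heart. Without any one dflox heart of that age, or without knockout replicate 1 or 3, the difference was 0.83 to 0.96 and the adjusted p 0.0598 to 0.0865. Here too, fits without a heart of 1 month change only the shared spread. At 1 month the level was 6.82, 6.99 and 6.85 in knockout hearts and 6.65, 6.59 and 6.09 in dflox hearts. The groups did not overlap, as in 18.1% of all genes, and the difference of 0.44 (SE 0.175, adjusted p = 0.435) did not pass the test. Groups that did not overlap, in the same direction at both ages, were found for 5.86% of all genes. Averaged over both ages Acta2 was 0.69 higher (SE 0.124, adjusted p = 0.0107), and passed in each of 12 fits without 1 heart.

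With age Acta2 was lower in dflox hearts at 2 months than at 1 month by a difference of −0.75 (SE 0.175, adjusted p = 0.0879), with no overlap, as for 19.9% of all genes. In knockout hearts the age difference was −0.26 (adjusted p = 0.636), and the groups overlapped. Neither passed. The genotype difference was 0.49 larger at 2 months than at 1 month (95% interval −0.06 to 1.04, adjusted p = 0.951). The order of groups was knockout at 1 month (6.89 ± 0.09), knockout at 2 months (6.63 ± 0.30), dflox at 1 month (6.44 ± 0.31) and dflox at 2 months (5.70 ± 0.05, SD, n = 3 each). The first 3 overlap with their neighbours, and dflox at 2 months lies below every other heart.

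Acta2 had 5 probes, of which 4 passed, and all 4 were higher in knockout hearts at both ages. Probe A_52_P420504, which represents the gene, is spotted 10 times per array, and its spots within an array had a median SD of 0.077 with 8 to 10 spots used. Probe A_51_P450957, which covers 3255 bases of genome and whose sequence is printed above, measured 6.15, 6.05 and 6.46 in knockout hearts at 2 months. In dflox hearts of that age it measured 5.55, 5.63 and 5.48. The rise in knockout hearts was 0.67 (SE 0.141, adjusted p = 0.0403 by limma over all 26985 probes, of which 1.98% passed). The other 2 differed by 0.73 (A_52_P239556, adjusted p = 0.118) and 0.70 (A_52_P210078, adjusted p = 0.167) at 2 months, without passing. Their groups did not overlap, and neither did those of 17.2% of all genes. At 1 month the 4 probes differed by 0.22 to 0.49, and none passed, where 0.715% of all probes did. With age the probes went apart. In knockout hearts A_51_P450957 differed by 0.26, and A_52_P420504, A_52_P239556 and A_52_P210078 by −0.46 to −0.26. In dflox hearts A_51_P450957 differed by −0.18 and the others by −0.75 to −0.63. None of these age differences passed. The fifth probe, A_52_P644232, was well above background on 1 of 12 arrays and is not used.

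**Figure D3:**
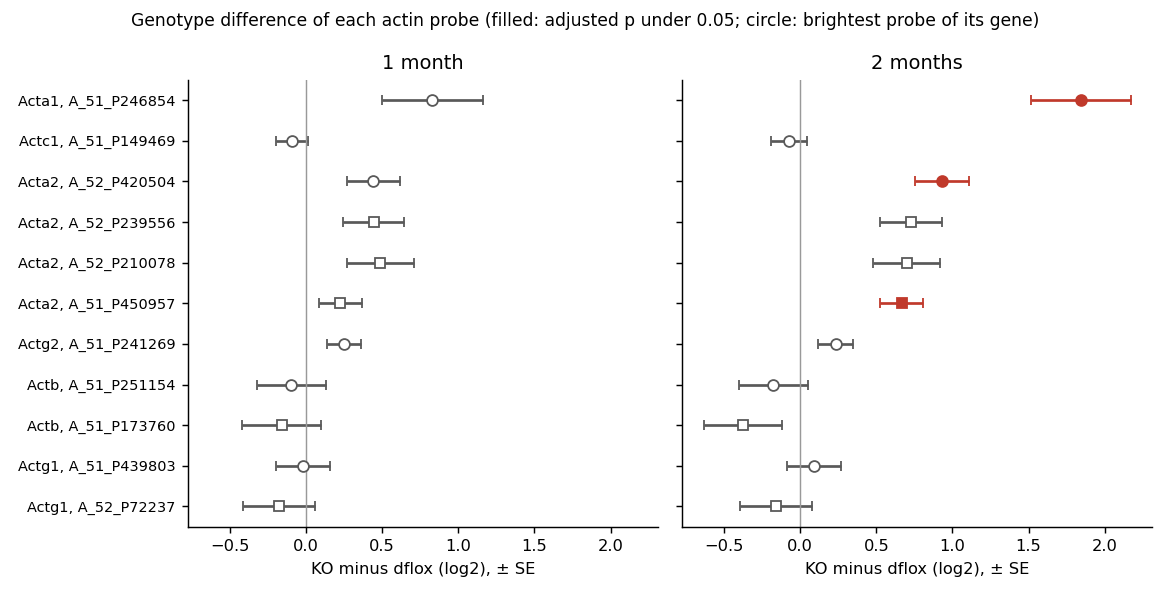
Knockout minus dflox difference (log2, horizontal axis) with its SE for each of the 11 actin probes, at 1 month (left) and 2 months (right). Filled symbols passed the test over all probes. At 2 months the Acta1 probe and 2 of the 4 Acta2 probes are filled, and all 4 Acta2 probes lie right of 0 at both ages.

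Enteric γ-actin, Actg2, differed by less than Acta2 and did not pass. Its level was 6.51, 6.51 and 6.35 in knockout hearts at 1 month, against 6.16, 6.22 and 6.24 in dflox hearts. The groups did not overlap, as in 18.1% of all genes. At 2 months the level was 6.44, 6.28 and 6.66 in knockout hearts, against 6.18, 6.21 and 6.29 in dflox hearts. There 1 knockout heart lay within the dflox range. The differences were 0.25 (SE 0.111, adjusted p = 0.537) and 0.23 (SE 0.111, adjusted p = 0.358). Averaged over both ages the difference was 0.24 (SE 0.079, adjusted p = 0.141). Both knockout groups averaged 6.46, and the dflox groups averaged 6.23 at 2 months and 6.21 at 1 month.

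The cytoplasmic actins did not differ between genotypes beyond the spread at either age. Actb was represented by probe A_51_P251154, which carries that name in the files but was designed at chrX:147192950-147193009, away from the Actb gene on chromosome 5, so it may measure another locus. Its level was 3.00, 2.66 and 2.83 in knockout hearts at 1 month, against 3.09, 2.92 and 2.76 in dflox hearts, and 2.71, 2.65 and 2.07 in knockout hearts at 2 months, against 2.49, 2.33 and 3.13 in dflox hearts. The differences were −0.10 and −0.18 (SE 0.230, adjusted p = 1.00 and 0.710). The second Actb probe, A_51_P173760, lies at chr5:141936471-141936530 and is spotted 10 times. In a local alignment the 2 probes shared 24 of 32 aligned bases.

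On the chromosome 5 probe, Actb measured 0.77, 0.98 and 0.93 in knockout hearts at 1 month, against 1.20, 1.22 and 0.74 in dflox hearts. In older hearts, at 2 months, the probe measured 1.14, 0.67 and 0.03 in knockout hearts, against 0.72, 1.01 and 1.25 in dflox hearts. The knockout hearts spread widely and overlapped the dflox hearts at both ages. The differences were −0.16 and −0.38 (SE 0.257, adjusted p = 1.00 and 0.499). Actg1 measured 4.93, 4.33 and 4.54 in knockout hearts at 1 month, against 4.92, 4.46 and 4.49 in dflox hearts, and 4.43, 4.32 and 4.65 in knockout hearts at 2 months, against 4.51, 4.33 and 4.30 in dflox hearts. Its differences were −0.02 and 0.09 (SE 0.178, adjusted p = 1.00 and 0.811), and those of its second probe, named only through the description, were −0.18 and −0.16.

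Counted over the family, 0 of the 6 genes passed at 1 month, 2 at 2 months and 2 in the average over both ages. The shares of all genes were 0.948%, 2.23% and 4.39%. For age, 0.351% of all genes passed in knockout hearts and 0.636% in dflox hearts, and 0% for the difference between the genotype effects. In each of these comparisons 0 of the 6 actin genes passed. At an unadjusted limma p under 0.05 there were 3 at 1 month (Acta1, Acta2 and Actg2), where 9.31% of all genes were below it, 2 at 2 months (Acta1 and Acta2, against 15.1% of all genes) and 3 in the average (Acta1, Acta2 and Actg2, against 17.3%). There was 1 in each comparison of ages, Acta1 in knockout hearts, where 12.3% of all genes were below it, and Acta2 in dflox hearts, where 14% were, which is near those shares. Both genes that passed were higher in knockout hearts. Across the 12 hearts Acta1 and Acta2 had a Pearson r of 0.41, Acta1 and Actg2 0.66, and Acta2 and Actg2 0.66, values that share the arrays and the group differences. Of the 6 genes only Actc1 lacked a value, in 1 heart.

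The arrays lay on 3 slides, of which 2 allow a comparison of genotypes within the slide at each age. At 2 months the Acta1 difference was 2.00 within slide 1 (1 heart against 1) and 1.77 within slide 3 (1 against 2). At 1 month it was 1.75 within slide 1 and 0.36 within slide 2, where the high dflox heart lay. For Acta2 the differences were 1.16 within slide 1 and 0.58 within slide 3 at 2 months, and 0.34 within slide 1 and 0.51 within slide 2 at 1 month. With slide as a fixed term, the differences at 2 months were 1.78 for Acta1 (adjusted p = 0.0581) and 0.90 for Acta2 (adjusted p = 0.0511). Outer places on the slides held all dflox hearts of 1 month and inner places all knockout hearts of that age, so that genotype and place then cannot be told apart. With place as a term, the differences averaged over both ages were 1.41 for Acta1 (adjusted p = 0.115) and 0.80 for Acta2 (adjusted p = 0.0776).

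The mean level of the 12 airway markers was −2.28, −3.33 and −4.05 in knockout hearts at 1 month, against 0.59, 1.84 and 1.87 in dflox hearts. At 2 months it was 1.83, −3.91 and 1.86 in knockout hearts, against −2.04, −3.77 and 2.24 in dflox hearts. All 12 markers were lower in knockout hearts at 1 month and all 12 higher at 2 months, and none passed by limma, although all 12 had an unadjusted p under 0.05 at 1 month and 0 at 2 months. Acta1 and Acta2 were higher in knockout hearts at both ages, and their Pearson r with the airway mean over the 12 hearts was −0.05 and 0.00. Since the airway difference changed sign between the ages, this pooled r cannot show whether airway RNA bears on either gene. In the hearts at 2 months with high airway markers, Acta1 was 6.64 and 7.00 in knockout hearts and 4.83 in the dflox heart. There Acta2 was 6.76 and 6.84 in knockout hearts and 5.76 in the dflox heart. Among the hearts at 2 months with low airway markers, Acta1 was 6.65 in the knockout heart and 5.01 and 4.92 in the dflox hearts, and Acta2 was 6.29 in the knockout heart and 5.68 and 5.66 in the dflox hearts. With these hearts alone at 2 months, a setting chosen after the data were seen, the differences were 1.68 and 0.62, and neither passed (adjusted p = 0.485 and 0.573). In that fit the averages over both ages were 1.26 for Acta1 (adjusted p = 0.152) and 0.53 for Acta2 (adjusted p = 0.141).

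**Figure D4:**
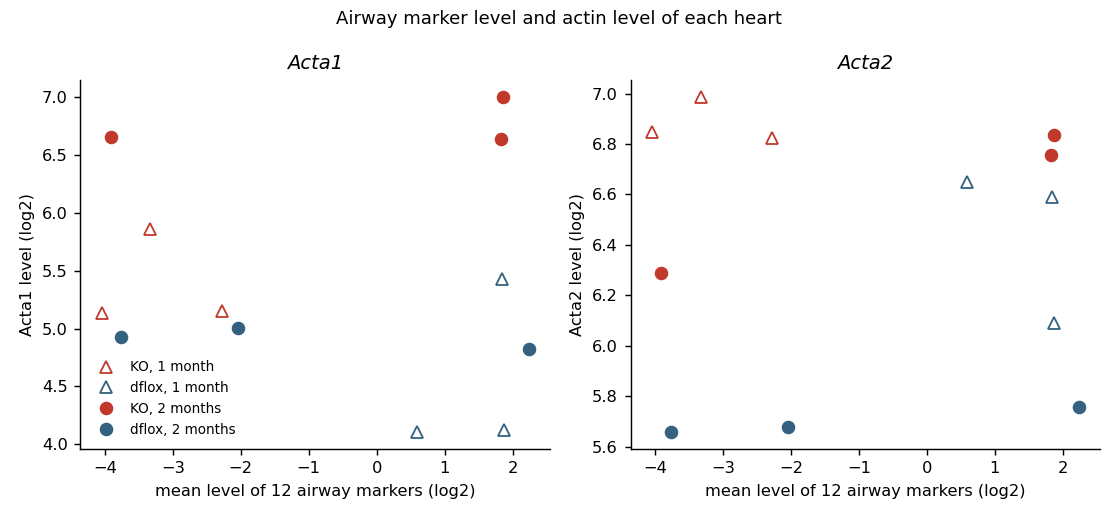
Level of Acta1 (left) and Acta2 (right) in each heart (log2, vertical axis) against the mean level of 12 airway markers (log2, horizontal axis). Red marks KO, blue dflox, open triangles 1 month and filled circles 2 months. KO hearts at 2 months lie above dflox hearts at 2 months on both sides of the airway range, at 6.29 or more for Acta2 against 5.76 or less.

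Among 24 genes for other thin filament proteins, 1 rose and 1 fell at 1 month and 1 fell at 2 months, where 0.948% and 2.23% of all genes passed. Of the 24, 9 were above 0 at 1 month and 11 at 2 months, with medians of −0.04 and −0.05, against medians of 0.00 and −0.08 over all genes, of which 50.1% and 39.5% were above 0. At 1 month Tmod4, a tropomodulin that caps pointed ends, rose by 0.83 (adjusted p = 0.0142). Tnni1, the slow skeletal troponin I of the fetal heart, fell by 1.20 at 1 month (adjusted p = 0.00802) and by 0.93 at 2 months (adjusted p = 0.0190). At 2 months Tnni3, the adult cardiac troponin I, differed by −0.38 (adjusted p = 0.319), and Tmod4 by 0.33 (adjusted p = 0.268). Tnni2, the fast skeletal troponin I, differed by −0.89 and −0.45 (adjusted p = 0.0806 and 0.320), and Lmod3, a filament nucleator, by 0.45 at 1 month (adjusted p = 0.455).

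Among 8 genes of the fetal to adult switch, to which Acta1 is usually counted, 3 rose and 1 fell at 1 month, where 0.948% of all genes passed. Myh7, the slow myosin heavy chain of the fetal mouse ventricle, rose by 3.61 (adjusted p = 2.90e-05), Nppb, the B-type natriuretic peptide, by 1.47 (adjusted p = 0.0464) and Ankrd1, a sarcomeric stress protein, by 0.93 (adjusted p = 0.0297), and Tnni1, also in this list, fell. At 2 months Myh7 rose by 2.78 (adjusted p = 8.98e-05), and Nppb and Ankrd1 differed by 0.72 and 0.68 (adjusted p = 0.274 and 0.107). The Acta1 difference was the larger one at 2 months and those of Myh7, Nppb and Ankrd1 at 1 month, but the change between ages passed for none of them. The median of the list was −0.14 at 1 month and −0.04 at 2 months. The list holds genes of the fetal heart, such as Tnni1, and of the adult heart, such as Tnni3. Its median therefore does not show the direction of the switch.

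Of 17 skeletal muscle genes tested out of 19, 2 rose at 1 month and 1 at 2 months, where 0.948% and 2.23% of all genes passed. Casq1, calsequestrin of fast skeletal muscle, rose by 2.17 (adjusted p = 0.00134) and 3.46 (adjusted p = 8.98e-05), and Mylpf, the fast skeletal regulatory light chain, rose by 1.74 at 1 month (adjusted p = 0.0142) and differed by 0.99 at 2 months (adjusted p = 0.106). Of the 17, 8 were above 0 at 1 month and 4 at 2 months, against 50.1% and 39.5% of all genes. Atp2a1, the fast skeletal calcium pump, differed by −0.45 at 1 month (adjusted p = 0.113), and at 2 months Myh2, a fast myosin, by −0.89 (adjusted p = 0.177) and Pvalb, parvalbumin of fast fibres, by −1.20 (adjusted p = 0.254). The mean level of the list lay between −1.15 and −0.96 in knockout hearts and between −1.17 and −0.94 in dflox hearts at 1 month. The later age, 2 months, had means between −1.03 and −0.77 in knockout hearts and between −1.12 and −0.63 in dflox hearts.

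Other genes of smooth muscle lay mostly below 0, opposite in sign to Acta2. Of 15 smooth muscle markers, all well above background on all 12 arrays, 1 was above 0 at 1 month and 4 at 2 months, against 50.1% and 39.5% of all genes, and the medians were −0.29 and −0.13. None passed in either direction by limma, with 4 at an unadjusted p under 0.05 at 1 month and 1 at 2 months, against 9.31% and 15.1% of all genes. Their mean level was 1.34, 1.53 and 1.46 in knockout hearts at 1 month, against 1.80, 1.87 and 1.66 in dflox hearts, with no overlap. At 2 months it was 1.71, 1.36 and 1.63 in knockout hearts, against 1.59, 1.57 and 1.87 in dflox hearts. At 2 months these means were higher in the hearts with high airway markers. Within each group of 1 month they did not follow the airway markers, and whether airway RNA shifted them was not tested. At 1 month those markers were low in every knockout heart and high in every dflox heart, so genotype and airway RNA then cannot be told apart. At 2 months the hearts with high airway markers had means of 1.71 and 1.63 (knockout) and 1.87 (dflox). Those with low airway markers had 1.36 (knockout) and 1.59 and 1.57 (dflox). At 1 month Myh11, smooth muscle myosin, differed by −0.85 (adjusted p = 0.132), Cnn1, calponin, by −0.80 (adjusted p = 0.477), Mylk, myosin light chain kinase, by −0.72 (adjusted p = 0.139) and Lmod1, a leiomodin, by −0.53 (adjusted p = 0.109). At 2 months Tagln, transgelin, differed by −0.48 (adjusted p = 0.215), Synpo2, an actin-binding protein of muscle, by −0.27 (adjusted p = 0.459), Itga8, an integrin, by −0.23 (adjusted p = 0.447) and Smtn, smoothelin, by 0.27 (adjusted p = 0.370).

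Markers of pericytes and myofibroblasts, cells known to make Acta2, are given beside those of fibroblasts and macrophages. All are read against all genes, of which 50.1% were above 0 at 1 month and 39.5% at 2 months. Of 10 pericyte markers, 1 was above 0 at each age and none passed, with medians of −0.12 and −0.26. Of 15 myofibroblast markers, 2 were above 0 at 1 month and 7 at 2 months, the later count near the share of all genes, and none passed, with medians of −0.19 and −0.04. Of 9 fibroblast markers, 0 were above 0 at 1 month and 4 at 2 months, again near that share at 2 months, and none passed. Macrophage markers lay the other way, with 12 of 12 above 0 at each age and medians of 0.24 and 0.28, and none passed by limma, with 3 and 4 at an unadjusted p under 0.05, against 9.31% and 15.1% of all genes. Whether Acta2 was made by cardiomyocytes or by other cells was not tested.

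**Figure D5:**
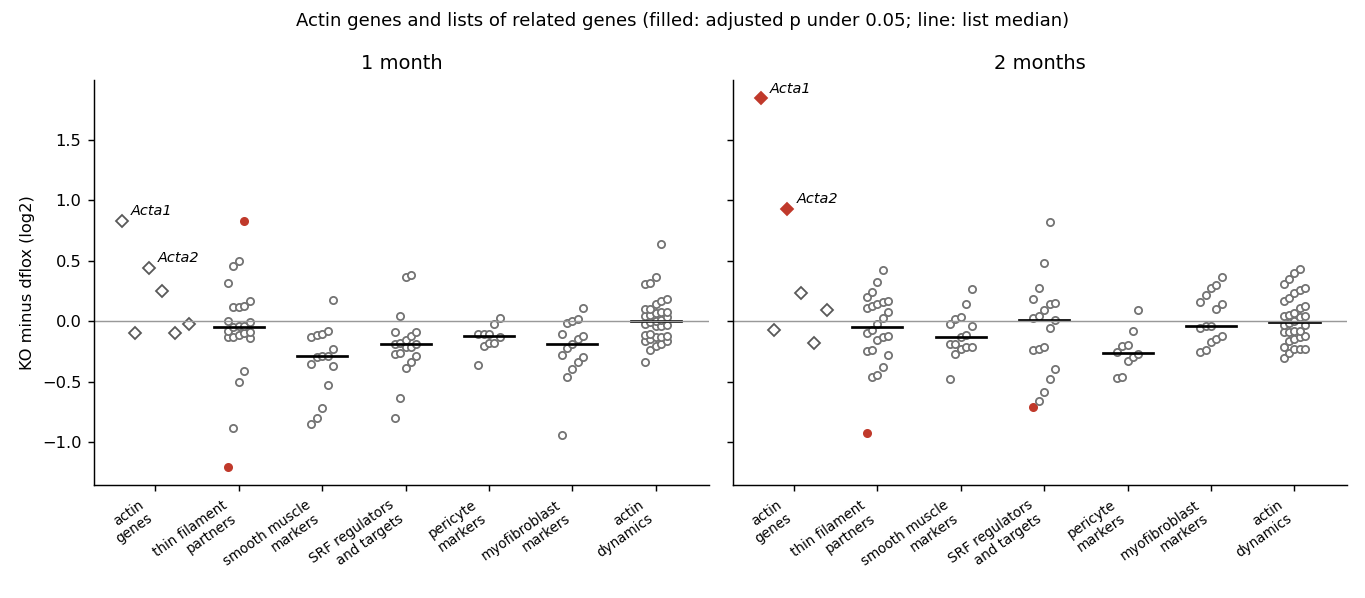
Knockout minus dflox difference (log2, vertical axis) of the 6 actin genes (diamonds) and of the genes of 6 lists (circles, with the list median as a line) at 1 month (left) and 2 months (right). Filled symbols passed the test. The lists are thin filament partners, smooth muscle markers, SRF regulators and targets, pericyte markers, myofibroblast markers and actin dynamics. Acta1 (1.84) and Acta2 (0.93) lie above every member of those 6 lists at 2 months, and the smooth muscle markers lie mostly below 0 at both ages.

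Among 19 tested of 20 regulators and targets of SRF, 3 were above 0 at 1 month and 10 at 2 months, with medians of −0.19 and 0.01. Of all genes, 50.1% and 39.5% were above 0, with medians of 0.00 and −0.08. The list shares Tagln and Cnn1 with the smooth muscle list, Ccn2 with the myofibroblast list and Flna with the list of actin assembly. Myocd, myocardin, the SRF co-activator of heart and smooth muscle, fell by 0.71 at 2 months (adjusted p = 0.0222), where 2.23% of all genes passed. Its difference at 1 month was −0.21 (adjusted p = 0.797). Fhl2, a LIM protein that binds SRF, differed by −0.66 at 2 months (adjusted p = 0.176) and Fosb, an immediate early gene, by −0.59 (adjusted p = 0.235). Flna, filamin A, differed by −0.33 at 1 month (adjusted p = 0.442). Srf itself, named after its values were seen, differed by 0.05 and 0.10 (adjusted p = 1.00 and 0.769). Of 34 regulators of actin assembly, 17 were above 0 at each age and none passed, with medians of 0.00 and −0.01.

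Genes whose levels followed Acta1 most closely over the 12 hearts, among 15951 genes, were Nudt16 (Pearson r = 0.954), Rasgef1a (0.940), Kcnj14 (0.940), Arvcf (0.938) and Padi2 (0.937). Padi2, a protein arginine deiminase, differed by 1.27 at 1 month and 1.73 at 2 months, and Kcnj14, an inward rectifier potassium channel, by 1.32 and 1.70. For Acta2 they were Il4ra (0.955), Grip1 (0.949), Hebp2 (0.948), Carns1 (0.937) and the unnamed probe A_52_P2659 (0.935). Hebp2, a heme-binding protein, differed by 0.44 at 1 month and 0.79 at 2 months, and Il4ra, a subunit of the interleukin receptor, by 0.20 and 0.39. None of these 10 belongs to the muscle lists above, and the correlations share the arrays, the scaling and the 4 groups.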

How the data were processed

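RNA from 12 hearts was hybridised, 1 Cy3-labelled sample per array. Per the file headers, the authors scanned with Agilent Feature Extraction 9.5.3.1 (9.5 per the submitters' processing notes), and the deposited processed signal is an intensity after background subtraction, not scaled between arrays. Outlier spots were dropped, each array's 75th percentile was subtracted from the log2 of the deposited intensity, and spots of a probe were averaged. Probes well above background on all arrays of 1 group were kept, with the brightest per gene.

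The 4 group means were fitted over all genes with limma 3.58.1 (R 4.3.3, data.table package, version 1.17.8), two-sided, and genes passed with a Benjamini-Hochberg adjusted p below 0.05. Log2 differences carry SE and levels SD. On simulated data at 2 months, 62% of 100 genes changed by 1 and 89% of 100 changed by 2 on the log2 scale were called. The simulated data also gave 8 false calls. One outlier spot left the permutation test of Acta1 against Actc1 with 200 regroupings rather than 400.

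Members and lists were chosen with earlier results of these data known. Named were all actin probes, up to 4 genes per list with the smallest p at each age, the 5 genes most correlated with Acta1 and with Acta2, and the receptor genes. Other background correction, scaling, filters, blocks, probes and left-out hearts were tried.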

Additional observations from a re-analysis of the deposited data

How the results depend on the processing

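Acta1 and Acta2 kept a higher level in knockout hearts at both ages under every alternative tried. The count of 2 actin genes called at 2 months was 1 with no filter on dim probes, with only the groups compared and with the replicate number as a block, and 0 with slide as a fixed block or without the 2-month hearts with high airway markers. The count of 2 for the average over both ages was 0 with place on the slide as a term and without those hearts, where the Acta1 minus Actc1 difference was 1.35. With 1 heart left out at a time, the count ran from 0 to 1 at 1 month, 0 to 2 at 2 months, 2 to 2 for the average, 0 to 1 for age in knockout hearts, and 0 to 0 for age in dflox hearts and for the difference between ages, and the Acta1 minus Actc1 difference from 1.24 to 1.57. Hearts shared only a replicate number: of 18 same-number pairs, 5 had deviations with a correlation over 0.1. Under the replicate block 325 genes were called at 2 months against 407 without it, and Acta2 had an adjusted p of 0.0571.

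Genes that did not pass changed sign near 0, and the cause was not tested. At 1 month Actg1 was 0.013 with normexp, 0.019 with quantile normalization, 0.019 with place and 0.045 with the airway mean as a term, Actc1 was 0.069 with quantile normalization and 0.083 with place, and Actb was 0.071 with the airway mean. At 2 months Actb was 0.047 and Actg1 −0.0059 with normexp, Actc1 was 0.0025 with median scaling and 0.043 with place, Actg1 was −0.034 with the mean over probes, and without the high-airway hearts Actb was 0.24 and Actg1 −0.098. Averaged over both ages Actg1 was −0.067 with the mean over probes, Actc1 was 0.063 with place, and without the high-airway hearts Actb was 0.070 and Actg1 −0.060. With 1 heart left out, Actg1 ran from −0.19 to 0.13 at 1 month, from −0.00076 to 0.17 at 2 months and from −0.048 to 0.11 for the average, and Actb at 2 months from −0.34 to 0.065.

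Over all genes, the count called at 1 month was 173 and ran from 6 with place as a term to 267 without the high-airway hearts. At 2 months it was 407 and ran from 17 without those hearts to 535 over single probes, and for the average 800, from 260 with place to 1075 over single probes. For age it was 64 in knockout hearts, from 0 without those hearts to 84 with slide as a random block, and 116 in dflox hearts, from 0 with only the groups compared to 179 with genes well above background on all 12 arrays. Normexp called 113, 240 and 490 genes at 1 month, at 2 months and on average, and median scaling 111, 254 and 509. Median scaling moved the median of all genes at 2 months to 0.03, against −0.08, with 64.2% of calls higher against 50.4%. For age in dflox hearts it moved the median to −0.09, against 0.04, with 26.9% of calls higher against 49.1%, and quantile normalization gave 38.4%.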
